A study of Oncorhynchus mykiss with 23 samples.

Results

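Cytosolic HSP90 was followed in fast muscle of rainbow trout with 6 array probes, of 60195 probes on the array. The probes were taken from the heat map file of the study, as all those whose match is named HSP90AA1 (2 probes) or HSP90AB1 (4 probes) in any spelling. HSP90AA1 is the alpha and HSP90AB1 the beta form of cytosolic HSP90. The names are best matches in other species. CUST_8352_PI425536763 (CUST_8352 below) was matched to human HSP90AA1 and CUST_24940_PI425536763 (CUST_24940) to rat Hsp90aa1. CUST_8943_PI425536763 (CUST_8943) was matched to rat Hsp90ab1, and TC118306, TC102347 and TC95779 to zebrafish hsp90ab1. None of these names is given in the scanner files, and which trout gene copy each probe reads was not tested, so each probe is described by itself.

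HSP90 is an ATP-driven chaperone that acts late in folding, after HSP70, on proteins such as protein kinases and steroid hormone receptors. In mammals the alpha form is the more strongly induced by stress, and the beta form is made at a steadier level. In zebrafish muscle, an alpha form of Hsp90 works with the co-chaperone Unc45b in folding myosin.

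Muscle RNA of 23 yearling trout of a spring strain was measured, with 1 Agilent array per fish. F0 trout (n = 5) had been deprived of food for 30 days. RF4 (n = 5), RF11 (n = 5) and RF36 trout (n = 4) came from the same tank, had the same fast, and were then refed above the satiation ration for 4, 11 or 36 days. The length of the fast is that of the labels and methods, while the study's results text gives the refed trout a longer one. C0 trout (n = 4) were fed to satiation in another tank and sampled on the day of F0. Feeding and tank therefore cannot be told apart in any comparison with C0. Nor can feeding and sampling day wherever refed trout are set against F0, against C0 or against refed trout of another time. Each sample was a slice of fast muscle from beneath the dorsal fin, and in such bulk tissue a change in the cells present cannot be told apart from a change in RNA per cell. Of 9 fast fibre markers 2 had a named probe, skeletal actin (ACTA1) and muscle creatine kinase (CKM). The brightest probe of each had mean levels of at least 8.82 and 6.06 in every group. Each level is a log2 signal with the 75th percentile of its array subtracted.

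The arrays differed in overall signal. The 75th percentile of the signal ran from 259 to 447 in F0, from 272 to 512 in RF4, from 208 to 527 in RF11, from 152 to 275 in RF36 and from 123 to 426 in C0. The control array C0-1 stood apart, with a mean correlation of 0.927 to the other C0 arrays (0.935 to 0.954 for the other 3) and a best correlation of 0.587 with any column of the heat map, against at least 0.976 for each of the other 22 arrays. The counts of probes called against C0, the shares of the fasting difference left and the tests between probes are therefore also given without it.

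The way the probes were found bears on every count below. The heat map holds only probes that passed the study's analysis of variance on these same fish, and the copy read here held 1252 of its 3924 rows, in clustered order. Of the 1230 listed probes that could be tested, 63.3% had their highest mean in F0, against 27.9% of all 34200 probes tested. That the members differed among groups, and in part that they were highest in F0, was set by this choice. Other HSP90 probes may lie in the rows not read. The study lists HSP90AA1 among genes that were higher in refed trout than in fasted and in control-fed trout. That course is unlike the one described below. The values below thus describe these 6 probes and not cytosolic HSP90 as a whole. The p-values below are from a fit over all probes tested and are not independent evidence for the members.

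All 6 probes were highest in fasted trout, in mean and in every fish. The log2 difference of F0 from C0 lay between 1.76 (TC95779) and 2.79 (CUST_8943), with a median of 2.39. All 6 passed the threshold as higher in F0 (limma, adjusted p at most 1.00e-05), where 11.4% of all tested probes did. For 6 of 6 probes all 5 fasted fish lay above all 18 other fish, which held for 2.1% of all tested probes. All 6 also passed the moderated F test over the 5 groups, as 45.8% of all tested probes did, and nothing is read from this because the list was chosen by such a test.

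**Figure D1:**
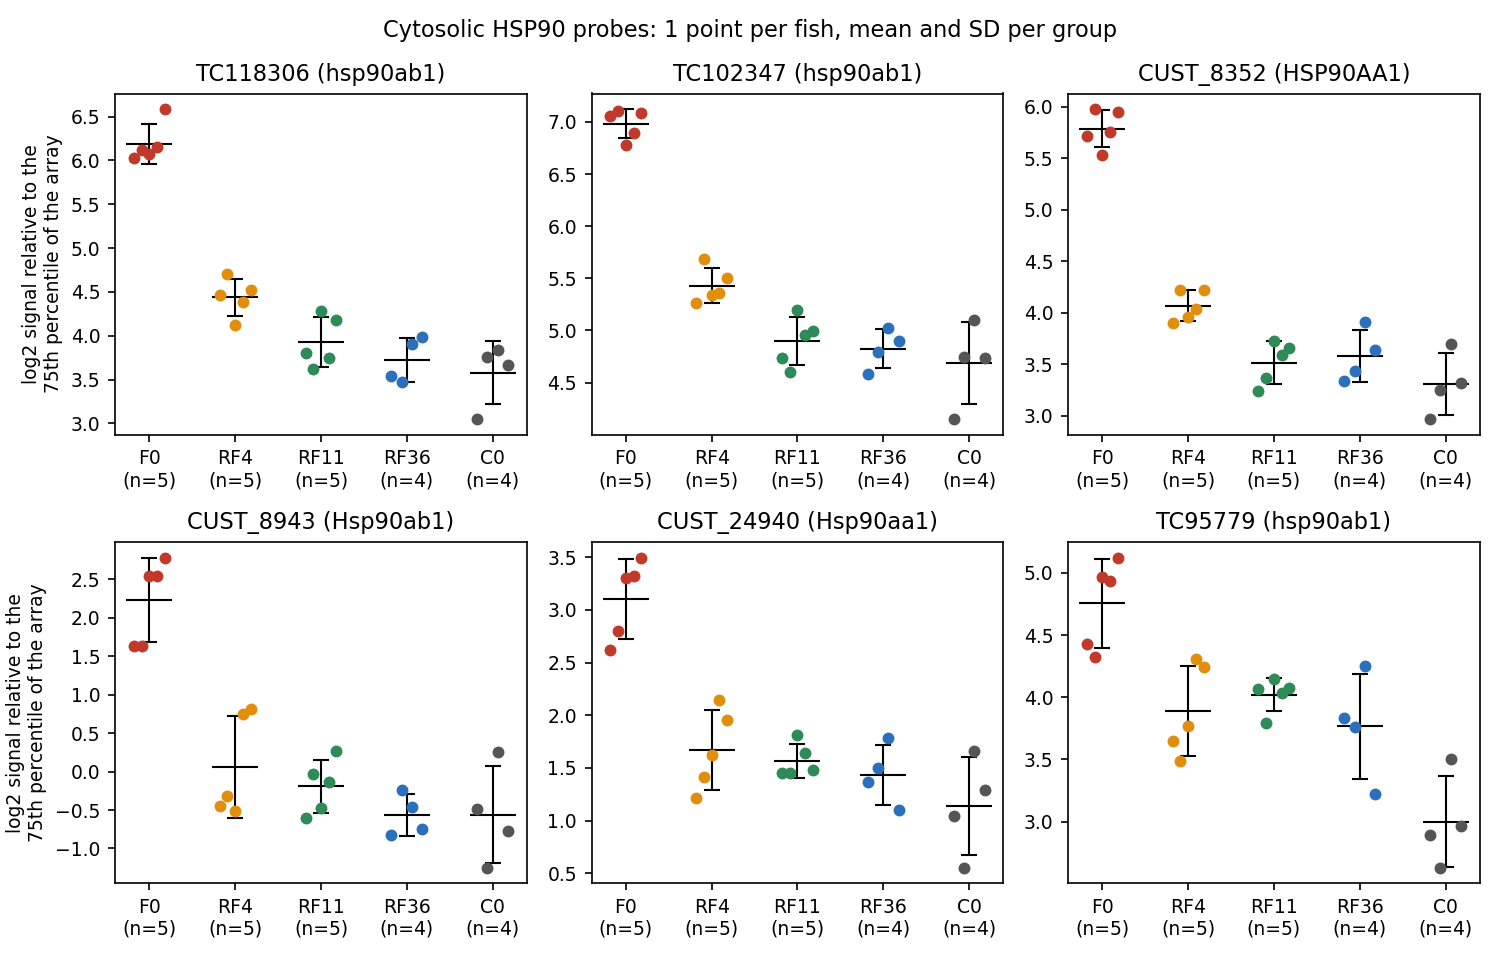
Level of each cytosolic HSP90 probe (log2 signal minus the array's 75th percentile) in each fish of F0, RF4, RF11, RF36 and C0, with the mean and SD of the group; each panel has its own axis, and levels of different probes are not comparable. In every panel the 5 F0 fish sit above all others, and for TC95779 the refed fish also stay well above most C0 fish.

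CUST_8352, the probe matched to human HSP90AA1, had levels of 5.72, 5.98, 5.54, 5.75 and 5.95 in F0 trout. In RF4 trout they were 3.90, 4.22, 3.96, 4.04 and 4.22, in RF11 trout 3.24, 3.36, 3.73, 3.59 and 3.66, and in RF36 trout 3.34, 3.43, 3.91 and 3.64, while C0 trout had 2.97, 3.25, 3.69 and 3.32. The fasted fish lay far above the rest, the RF4 fish above all RF11 and all C0 fish, and RF11, RF36 and C0 overlapped. Its level was thus 5.79 ± 0.18 (SD, n = 5) in F0, against 3.31 ± 0.30 (n = 4) in C0. This is a difference of 2.48 (standard error 0.17, limma adjusted p = 2.63e-09), or 5.59-fold (95% interval 4.39 to 7.11).

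The other alpha-named probe, CUST_24940, was spread more widely within groups. It ranged from 2.62 to 3.50 in F0, from 1.21 to 2.14 in RF4, from 1.45 to 1.82 in RF11, from 1.10 to 1.78 in RF36 and from 0.55 to 1.66 in C0. Only the fasted fish stood clear of the others, and the refed fish overlapped with C0 at each time. F0 was 1.97 above C0 (standard error 0.23, limma adjusted p = 3.29e-06), or 3.92-fold (95% interval 2.80 to 5.49).

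Of the beta-named probes, TC118306 had levels of 6.02, 6.12, 6.07, 6.16 and 6.59 in F0 trout. RF4 trout had 4.46, 4.70, 4.12, 4.39 and 4.52, RF11 trout 3.81, 3.62, 4.29, 3.75 and 4.18, and RF36 trout 3.55, 3.47, 3.90 and 3.98, while C0 trout had 3.05, 3.76, 3.84 and 3.66. The fish F0-7 was the highest, C0-1 the lowest, and the RF4 fish lay above all C0 fish. The difference of F0 from C0 was 2.61 (standard error 0.19, limma adjusted p = 7.79e-09), or 6.12-fold (95% interval 4.63 to 8.08).

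TC102347 followed the same course, with 6.78 to 7.10 in F0, 5.26 to 5.68 in RF4, 4.61 to 5.19 in RF11, 4.58 to 5.02 in RF36 and 4.15 to 5.10 in C0. The F0 fish formed the tightest of its groups (SD 0.14) and the C0 fish the widest (SD 0.39). F0 was 2.30 above C0 (standard error 0.18, limma adjusted p = 1.08e-08), or 4.92-fold (95% interval 3.83 to 6.33).

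CUST_8943 had levels of 1.63, 1.64, 2.55, 2.54 and 2.79 in F0 trout. In RF4 trout they were -0.45, -0.32, -0.51, 0.75 and 0.81, in RF11 trout -0.60, -0.03, -0.48, -0.13 and 0.27, and in RF36 trout -0.82, -0.24, -0.46 and -0.75, while C0 trout had -0.49, -1.25, 0.26 and -0.77. Both F0 and RF4 fell into a lower and a higher subset, and the refed and control fish overlapped. The difference of F0 from C0 was the largest of the 6 in mean and had the widest interval, at 2.79 (standard error 0.33, limma adjusted p = 3.30e-06), or 6.93-fold (95% interval 4.30 to 11.2). Its rank as the largest was not kept in every alternative. With array signal as a covariate it was 2.11, against 2.47 for TC118306. After normexp background correction it was 2.21, against 2.77 for TC118306.

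The remaining beta-named probe, TC95779, had levels of 4.43, 4.33, 4.96, 4.94 and 5.12 in F0 trout. RF4 trout had 3.65, 3.48, 3.77, 4.30 and 4.24, RF11 trout 4.07, 3.79, 4.14, 4.03 and 4.07, and RF36 trout 3.83, 3.76, 4.25 and 3.22, while C0 trout had 2.90, 2.63, 3.51 and 2.97. The highest RF4 fish came close to the lowest F0 fish, and all RF11 fish lay above all C0 fish, as for 11.2% of all tested probes. F0 was 1.76 above C0 (standard error 0.23, limma adjusted p = 1.00e-05), or 3.38-fold (95% interval 2.43 to 4.70).

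The size of the difference between F0 and C0 was also taken in parts of the data. For all 6 probes every F0 fish lay above every C0 fish. A positive difference was therefore set in advance within slides and without C0-1, and only its size is described. Without C0-1 it lay between 1.72 and 2.82 over the 6 probes, and all 6 passed. Within the 3 slides, which each held 1 or 2 fish of each group, it lay between 1.80 and 2.88 on slide 1, between 1.83 and 3.31 on slide 2 and between 1.71 and 2.80 on slide 3. F0 arrays were also brighter than most C0 arrays, and with array signal as a covariate, an alternative chosen after seeing the data, the difference lay between 1.46 and 2.47 and all 6 passed.

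After 4 days of refeeding the 6 probes were lower than in F0, with log2 differences from -2.17 (CUST_8943) to -0.87 (TC95779) and a median of -1.64. All 6 fell past the threshold at RF4 (limma, adjusted p at most 0.00468), where 9.68% of all tested probes fell. CUST_8352 fell by 1.72 (standard error 0.16, adjusted p = 5.31e-08), to 0.304 of its F0 signal. TC118306 was at 0.297 of its F0 signal, TC102347 at 0.341, CUST_24940 at 0.370 and CUST_8943 at 0.222, whereas TC95779 was at 0.549 (95% interval 0.402 to 0.749).

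At the later times the probes stayed below F0. At RF11 the differences from F0 lay between -2.42 and -0.73 and all 6 probes fell past the threshold (background 12%), and at RF36 they lay between -2.80 and -0.99, again with all 6 past it (background 14.5%). TC95779 had the smallest fall both times, by 0.73 at RF11 (adjusted p = 0.0138) and by 0.99 at RF36 (adjusted p = 0.00215). Its call at RF11 was lost with scaling to the array median (adjusted p = 0.0895), with the deposited values (0.0892) and with the sample number as a block (0.0584), which leaves 5 probes. These comparisons share the F0 fish with each other and with F0 against C0.

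Between successive refeeding times the changes were small. In RF11 against RF4, 0 of 6 probes passed the adjusted threshold (limma, background 1.94%). CUST_8352 differed by -0.55 (adjusted p = 0.0708), TC102347 by -0.53 (adjusted p = 0.0993) and TC118306 by -0.51 (adjusted p = 0.166). For TC102347 and CUST_8352 all RF11 fish lay below all RF4 fish, which held for 2.85% of all tested probes. The calls of both changed when the single control array C0-1 was left out of the fit (limma adjusted p = 0.0401 and 0.0428). Their differences stayed the same, since no C0 fish enters them. C0 fish do enter the p-value, because the fit shares its estimate of the spread over all groups. TC95779 differed the other way, by 0.13 (95% interval -0.32 to 0.58). In RF36 against RF11, 0 of 6 probes passed the adjusted threshold (background 5.92%), with differences from -0.37 to 0.06.

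**Figure D2:**
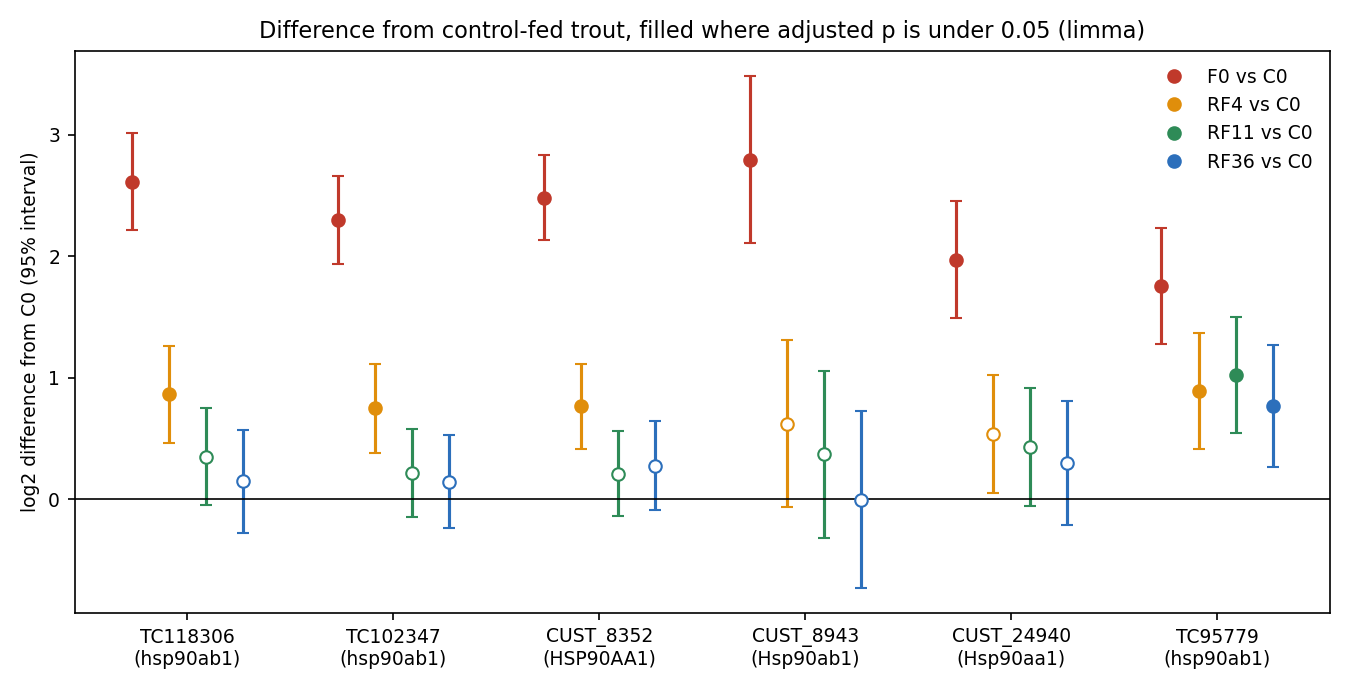
Log2 difference of F0, RF4, RF11 and RF36 from C0 for each probe with its 95% interval; filled points have a limma adjusted p under 0.05 over all tested probes. F0 is filled for all 6 probes, RF4 for 4, and RF11 and RF36 only for TC95779.

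Against control-fed trout, some probes were still above the C0 level after refeeding and others could no longer be told apart from it. At RF4, 4 of 6 probes were still higher than in C0, where 15.5% of all tested probes were. These were TC95779 (0.89, adjusted p = 0.00670), TC118306 (0.86, adjusted p = 0.00228), CUST_8352 (0.76, adjusted p = 0.00192) and TC102347 (0.75, adjusted p = 0.00327). For the last 3 of these all RF4 fish lay above all C0 fish (background 11.6%). Without C0-1 the same count was 4 probes. The 2 others differed by 0.62 for CUST_8943 (95% interval -0.07 to 1.31) and by 0.54 for CUST_24940 (95% interval 0.05 to 1.02, adjusted p = 0.0969). CUST_24940 passed in 5 of 34 alternatives. It did so without C0-3 (0.71, limma adjusted p = 0.0301) and with slide as a block (0.59, adjusted p = 0.0356). Scaling to the array median and the deposited values each gave 0.82 (adjusted p = 0.0281), and normexp background correction 0.55 (adjusted p = 0.0453). Within slides the RF4 differences from C0 ran from 0.63 to 1.43, from 0.17 to 1.65 and from 0.37 to 0.80. With array signal as a covariate 3 probes passed, and TC95779 did not (0.60, adjusted p = 0.0763).

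At RF11 only TC95779 was above C0, by 1.02 (standard error 0.23, limma adjusted p = 0.00269) or 2.03-fold (95% interval 1.46 to 2.82), where 14% of all tested probes were higher. The other 5 differed from C0 by 0.21 to 0.43 with intervals that held 0, such as -0.14 to 0.56 for CUST_8352 and -0.32 to 1.06 for CUST_8943. Without C0-1 these 5 differed by 0.03 to 0.40. With scaling to the array median, which moved the median of all probes to 0.24, against -0.08, they differed by 0.54 to 0.76 and CUST_24940 passed (adjusted p = 0.0418). The TC95779 difference was 0.99 without C0-1 (adjusted p = 0.00920) and 0.76 with array signal as a covariate (adjusted p = 0.0285). It was 1.44, 1.07 and 0.80 within the 3 slides.

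At RF36, TC95779 was again the probe above C0, by 0.77 (standard error 0.24, limma adjusted p = 0.0404), with 9.24% of all tested probes higher. RF36 and C0 fish of this probe overlapped, since RF36-4 (3.22) lay below C0-3 (3.51). The call was lost without C0-1 (0.73, adjusted p = 0.0931), C0-2 (0.64, adjusted p = 0.123) or C0-4 (0.76, adjusted p = 0.0611). It was lost likewise without RF36-1 (0.74, adjusted p = 0.0805), RF36-2 (0.77, adjusted p = 0.0842) or RF36-3 (0.61, adjusted p = 0.142). The other 5 probes differed from C0 by -0.00 to 0.30 (-0.04 to 0.27 without C0-1), with unadjusted limma p-values of at least 0.137.

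The order of the group means was F0, RF4, RF11, RF36 and C0 from high to low for TC118306, TC102347 and CUST_24940. CUST_8352 had RF36 and RF11 exchanged, and for CUST_8943 RF36 and C0 were level, at -0.57 and -0.56. TC95779 had RF11 above RF4. In each of these orders the step below F0 was past the threshold, and neither RF11 against RF4 nor RF36 against RF11 passed it for any probe. For TC95779 the step below F0 was that to RF11, a call lost with median scaling, the deposited values and the sample number as a block. RF4 and RF36, which are neighbours in the orders of CUST_8352 and TC95779, were not set against each other. The step above C0 was past the threshold only for TC95779, whose call at RF36 was lost in the alternatives given above.

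Expressed as a share of the distance between the C0 and the F0 mean on the log2 scale, 33.0% ± 8.07 (SD, n = 5 fish) of the fasting difference was left at RF4 for TC118306, 13.3% ± 11.0 (n = 5) at RF11 and 5.58% ± 9.72 (n = 4) at RF36. Without C0-1 these shares were smaller, at 28.1%, 7.06% and -1.26%. What was left for this probe at the later times thus rested in part on that array. TC102347 had 32.5% left at RF4, CUST_8352 30.8%, CUST_24940 27.2% and CUST_8943 22.2%, with an SD of 23.8 over fish for the last. At RF11 these 4 probes had 8.41% to 21.9% left, and without C0-1 TC102347 had 1.64% and CUST_8352 4.04%. TC95779 had 50.7% ± 20.8 (n = 5) at RF4, 58.2% ± 7.66 (n = 5) at RF11 and 43.7% ± 24.0 (n = 4) at RF36, and 49.7%, 57.4% and 42.5% without C0-1. The RF11 fish of this probe ran from 45.1% to 65.2%, while the highest RF11 fish of the other members was at 34.6%. The probe matched to human HSP90AB3P, outside the members, also stayed above C0 at RF11, as given below, and its share was not computed. All SDs here are over the refed fish and leave out the spread within F0 and C0.

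**Figure D3:**
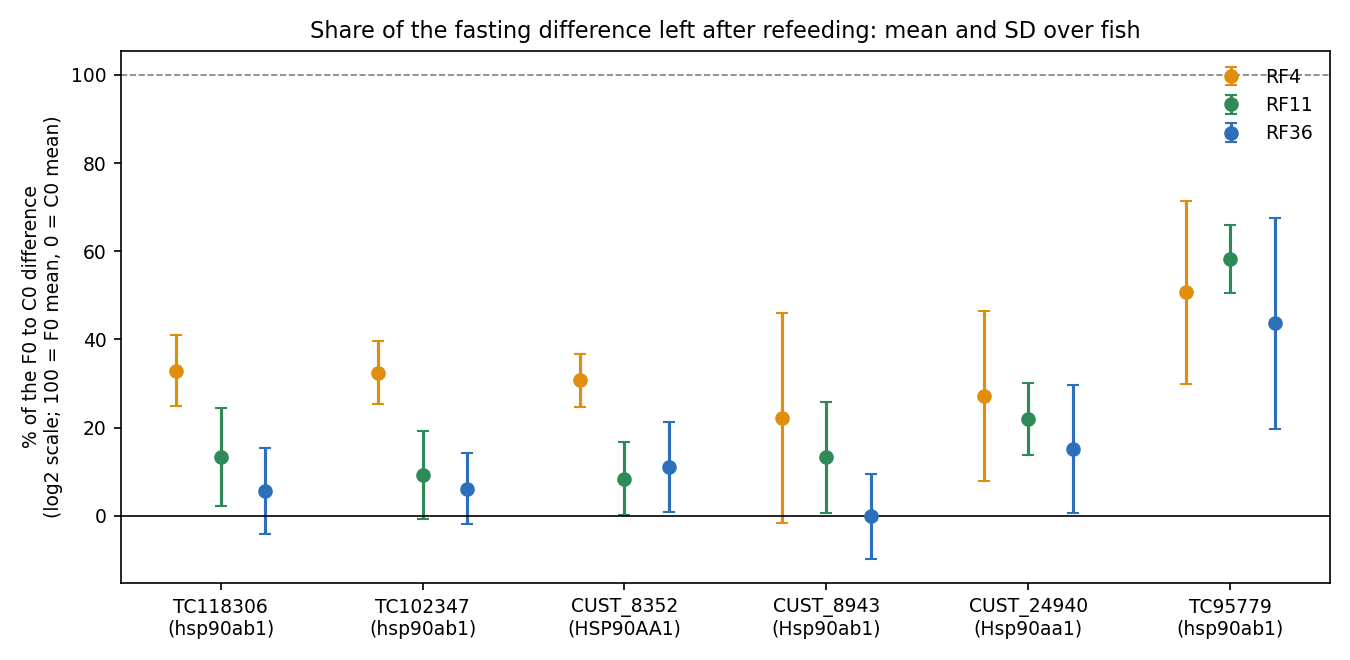
Share of the F0 to C0 difference left after 4, 11 and 36 days of refeeding for each probe, as the mean and SD over fish, where 100% is the F0 mean and 0% the C0 mean. The means of TC95779 lie between 43.7% and 58.2% at the 3 times, and those of the other 5 probes are at 21.9% or less at RF11. Single TC95779 fish run from 27.6% to 74.3% at RF4 and from 12.7% to 71.1% at RF36. The bars treat the F0 and C0 means as fixed.

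Whether probes changed by different amounts was tested for all 15 pairs of probes in 3 comparisons, with an exact two-sided permutation test over fish of the difference between 2 probes and Benjamini-Hochberg adjustment over the 15 pairs. In RF4 against F0, 5 pairs passed. TC95779 fell less than CUST_8943 by 1.31, than TC118306 by 0.89, than CUST_8352 by 0.85 and than CUST_24940 by 0.57, and CUST_24940 fell less than CUST_8943 by 0.74 (each adjusted p = 0.0476, exact p between 0.00794 and 0.0159). The smallest exact p in that comparison, 0.00794, is the smallest that 5 fish against 5 allow. In F0 against C0, 0 pairs passed. The largest gap there was between CUST_8943 and TC95779, at 1.04 (exact p = 0.0159, the smallest that 5 fish against 4 allow, adjusted p = 0.0794). CUST_8943 also differed more than CUST_24940 there, by 0.82 (exact p = 0.0159, adjusted p = 0.0794). Both comparisons use the same F0 fish, so a smaller fall at RF4 is not by itself read as a different course on refeeding. In RF11 against C0 0 pairs passed either, although TC95779 lay above TC118306 (by 0.67), TC102347 (0.81), CUST_8352 (0.81) and CUST_24940 (0.59) at an exact p of 0.0159 each (adjusted p = 0.0595). Without C0-1, 0 pairs passed in either comparison, where 5 fish against 3 allow no exact p below 0.0357. With adjustment over the 15 pairs, fewer fish mean that more pairs must reach the smallest exact p before any passes. The counts of pairs that passed are therefore not compared between comparisons.

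The probes also differed in how they varied among fish of the same group, and this did not follow the alpha and beta names. Over deviations from the group means of the 23 arrays, TC118306, TC102347 and CUST_8352 correlated with one another at r = 0.75 to 0.90, and CUST_8943, CUST_24940 and TC95779 at r = 0.76 to 0.91. Across these sets the 9 correlations were 0.08 to 0.39. Each set thus held 1 alpha-named and 2 beta-named probes. Over all levels, which share the feeding groups, the 15 correlations ran from 0.75 to 0.99. The split is that of the members. Of the HSP90 probes outside them, given below, the Hsp83-named probe correlated within groups at 0.41 to 0.57 with the first set and 0.76 to 0.86 with the second. For the daf-21-named probe these were 0.46 to 0.61 and 0.69 to 0.84. For the HSP90AB3P-named probe they were 0.11 to 0.40 and 0.76 to 0.83. All probes were read on the same arrays, the sets were named after the correlations were seen, and the values are given as a description. They include C0-1, the lowest C0 fish for TC118306, TC102347 and CUST_8352, and were not computed without it.

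In the second set F0-4, F0-5, F0-7, RF4-5 and RF4-7 were the high fish of their groups, and these arrays also had the highest 75th percentile of the signal in F0 and RF4. Within groups the correlation of level with array signal was 0.77 for CUST_8943, 0.54 for CUST_24940 and 0.51 for TC95779, and 0.24 to 0.43 for the first set. With the part that follows array signal removed, the correlations were 0.72 to 0.91 within the first set, 0.67 to 0.88 within the second and -0.16 to 0.21 across them.

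**Figure D4:**
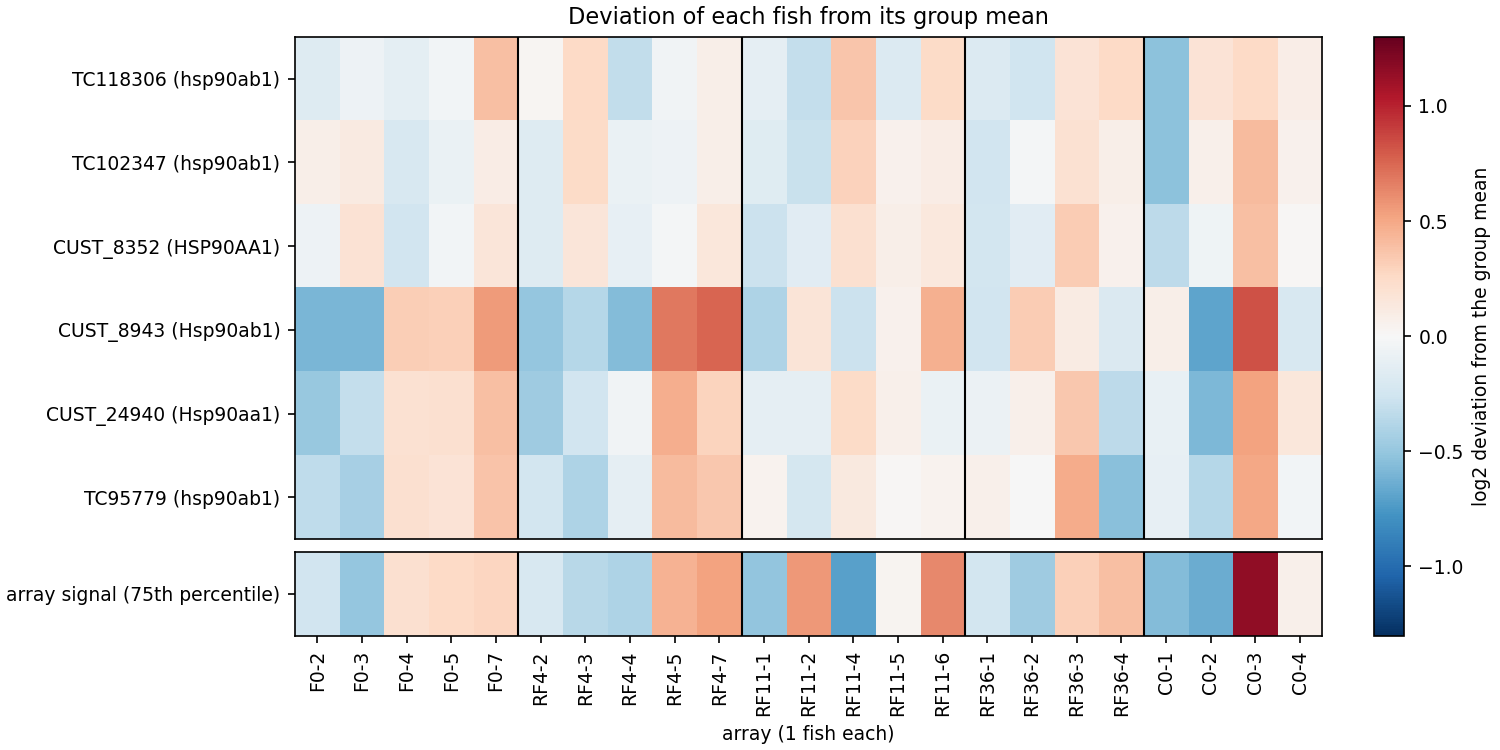
Deviation of each fish from the mean of its group (log2 scale, colour) for the 6 probes, with the deviation of the array's 75th percentile signal (log2) in the strip underneath; vertical lines separate F0, RF4, RF11, RF36 and C0. CUST_8943, CUST_24940 and TC95779 share high values on F0-4, F0-5, F0-7, RF4-5, RF4-7 and C0-3. In the upper 3 rows F0-7, RF4-7 and C0-3 are also above their group means, while F0-4, F0-5 and RF4-5 are below them.

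Another 3 probes of the listed rows had HSP90 family names outside the rule. CUST_27499_PI425536763, matched to mosquito Hsp83, was at 4.47 ± 0.24 (SD, n = 5) in F0, against 2.08 ± 0.37 (n = 4) in C0, a difference of 2.40 (limma adjusted p = 3.08e-08). CUST_10655_PI425536763, matched to human HSP90AB3P, was at 3.87 ± 0.32 (n = 5) in F0, against 1.65 ± 0.36 (n = 4) in C0, a difference of 2.22 (limma adjusted p = 4.71e-07). CUST_22377_PI425536763, matched to the nematode HSP90 gene daf-21, differed least, by 1.23 (limma adjusted p = 1.26e-04). At RF11 the Hsp83-named probe differed from C0 by -0.00 (95% interval -0.41 to 0.40), while the HSP90AB3P-named probe was still 0.94 above it (adjusted p = 0.00448). TC95779, at 1.02 above C0, was thus not the only HSP90-named probe past the threshold at RF11.

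Few other chaperone genes could be set beside HSP90. Of 89 genes in lists of HSP90 co-chaperones, other HSP90 family members, the HSP70 system, small heat shock proteins, chaperonins, endoplasmic reticulum chaperones, heat shock factors and client proteins, 5 had a named probe. No co-chaperone (0 of 16), HSP70 system gene (0 of 25) or heat shock factor or client (0 of 8) had one among the rows read, so nothing is said of them here. Of 10 small heat shock proteins 2 were found and changed in opposite directions. CRYAA, the alpha-A crystallin, rose to 2.55 ± 1.07 (SD, n = 5) in F0, against -0.22 ± 0.46 (n = 4) in C0, by 2.77 (limma adjusted p = 5.01e-05). HSP30, a small heat shock protein of fish, was between -2.94 and 0.29 in F0 trout and between 3.17 and 4.80 in C0 trout, and was well above background on 4 of 5 F0 arrays. It was the chaperone probe with the largest difference, at -5.84 (adjusted p = 1.77e-05), and at RF4 it was 3.67 above F0 (adjusted p = 8.36e-04). SERPINH1, the collagen chaperone HSP47 of the endoplasmic reticulum, was 0.74 lower in fasted trout (adjusted p = 0.00110), and the chaperonin subunit TCP1 0.49 lower (adjusted p = 0.0259, lost in 10 of 34 alternative settings). The HSP70 co-chaperone DNAJB9 of the endoplasmic reticulum differed by -0.47 (adjusted p = 0.381) and was well above background on 4 of 5 F0 and 2 of 4 C0 arrays.

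The fasted trout also differed in markers of other cells. Of 5 fibroblast genes 4 had a named probe, and all 4 were lower in fasted than in control-fed trout (limma, adjusted p at most 2.30e-04), COL1A1 by -2.37, COL1A2 by -2.22, POSTN by -2.11 and DCN by -1.42. Of all tested probes 8.92% were lower, and these 4 came from heat map rows already chosen for differing among groups. The endothelial receptor KDR was 0.86 higher (adjusted p = 0.0475), a call lost in 23 of 33 alternative settings. Of the fast fibre genes, ACTA1 was 1.12 lower (adjusted p = 8.16e-04, but 0.176 with quantile normalization) and CKM 1.55 higher (adjusted p = 7.60e-06). Each gene is given here by its brightest probe. ACTA1 had 6 named probes tested, COL1A1 had 12, and COL1A2, POSTN and DCN had 2 each, and their other probes are not described. Markers of slow fibres, red blood cells, leukocytes and adipocytes had 0 named probes in the rows read. The part of these shifts in the HSP90 levels was not tested.

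The named probes most like HSP90 in pattern were sought among the listed rows, by the Pearson correlation over the 23 arrays with the mean of the 6 members. All 8 had r of at least 0.934, where the 1221 listed probes tested outside the HSP90 family had a median r of 0.592 and 47 had r above 0.9. They were Trpc2, a cation channel (r = 0.958), both probes of twistnb, a subunit of RNA polymerase I (0.950 and 0.949), zgc:55870 (0.947), the serine incorporator Serinc1 (0.940), RPS13, a protein of the small ribosomal subunit (0.940), a probe matched to the bacterial aminopeptidase gene apeB (0.939) and the nuclear import receptor Ipo7 (0.934). Since they were chosen for a course like that of the members, their higher level in F0 than in C0, by 1.76 (apeB) to 4.74 (RPS13), and their lower level in RF4 than in F0 were set by the choice. The same limit holds for their later values. The RPS13-named probe was well above background on only 4 of 5 RF11 and 1 of 4 RF36 arrays. At RF11 both twistnb probes (1.20 and 1.08), zgc:55870 (0.96) and Ipo7 (0.82) remained above C0 (limma, adjusted p at most 0.00571), and the others were not past the threshold. Of 34191 tested probes outside the HSP90 family, 55 had r above 0.9, of which 37 had a name here, and 17 had r below -0.9.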

How the data were processed

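Spot intensity was deposited by the authors as the processed signal of Agilent Feature Extraction 10.7.3.1 (submitters' processing notes), after background subtraction and with no scaling between arrays, together with the median intensity of each spot and its local background. The authors' deposited log2 table, scaled to equal medians, was used only as an alternative. From the processed signal, control spots and outlier spots were left out, log2 values of a probe's spots were averaged and the 75th percentile of each array was subtracted. Tests covered the 34200 probes that exceeded background clearly (the scanner's flag) on 4 or more arrays of 1 group, with 137 incomplete probes left out. The 9 HSP90 probes had this flag on all 23 arrays.

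One model with a mean per feeding group was fitted over 23 arrays with limma 3.58.1 in R 4.3.3 (lmFit, eBayes), two-sided, with Benjamini-Hochberg adjustment over all tested probes and a threshold of 0.05; the script was tested on simulated data. The number of arrays limits the precision. Tables and exact tests were made with Python 3.11.15, pandas 2.3.3 and scipy 1.17.1. Probe names came from the heat map file (842 of 1252 rows read have a gene name); its values served only for the check of array identity. Named genes were the members, other HSP90 family probes, the 8 named probes most correlated with the members, and fixed chaperone and marker lists, with the brightest probe per gene. The members and lists were chosen with earlier results of these data known. Probe sequences were not used here. Alternatives were median scaling, normexp background correction (offset 50), quantile normalization, the deposited values, 2 filters on dim probes, a sample number block, a slide block, leaving out each array, a model of only the groups compared, an adjusted p of 0.01, the methods' one-way ANOVA and, added after seeing the data, array signal as a covariate.

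Sample numbers recur in the groups, and the main model did not pair fish by number. Across groups, 33 pairs of arrays with the same number had a median correlation of deviations of 0.108 (-0.32 to 0.35). The 178 pairs with other numbers had a median of -0.0099 (-0.34 to 0.32).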

Additional observations from a re-analysis of the deposited data

Results flagged for a closer look

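Of 45 groups checked (9 HSP90 probes in 5 groups), 1 held a fish set apart from its group by more than Dixon's 95% limit; chance flags about 1 in 20. In F0, the fish F0-7 had a TC118306 level of 6.59, against 6.02 to 6.16 in the other 4 fasted trout. TC102347 and CUST_8352_PI425536763, which varied with TC118306 among fish, were at 7.08 and 5.95 in F0-7, inside the range of their F0 groups.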

How the results depend on the processing

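The counts for F0 against C0 and for RF4, RF11 and RF36 against F0 were unchanged, or within 1.5 times, under every alternative run, and with each array left out they were 6 of 6. The count for RF11 against C0 was 2 (main 1) with scaling to the array median, after normexp background correction and with the authors' deposited values. The count for RF36 against C0 was 0 (main 1) with quantile normalization, no filter on dim probes, only the arrays of the groups compared and an adjusted p of 0.01, and 0 to 1 with each array left out. The count for RF11 against RF4 was 2 (main 0) with quantile normalization, 1 when the probes tested were limited to those bright on all arrays, 1 with array signal as a covariate, and 0 to 2 with each array left out. That for RF4 against C0 (main 4) was 4 to 5 with each array left out. It was 5 with scaling to the array median, normexp background correction, the deposited values and slide as a block. With quantile normalization and with array signal as a covariate it was 3. With the sample number as a replicate block, RF11 against F0 was called for 5 of 6 probes (TC95779 -0.63, adjusted p = 0.0584) and F0 against C0 for 6. TC95779 in RF11 against F0 also missed the threshold with scaling to the array median (-0.59, adjusted p = 0.0895), and in RF4 against C0 with quantile normalization (adjusted p = 0.0607). Over 34 alternatives, the adjusted p of TC95779 in RF36 against C0 ran between 0.0141 and 0.292 and was under 0.05 in 25. SERPINH1 in F0 against C0 missed the threshold in 3 of 34. The cause of these shifts was not tested. With 4 or 5 arrays per group, small differences cannot be seen.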
